A study of Homo sapiens with 6 samples.

Results

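RPB1 and phospho-Ser2 RPB1 were compared on the chromatin of SHP-1 WT HepG2 cells, a human hepatoma cell line. RPB1 is the largest subunit of RNA polymerase II (RNA pol II). The comparison used every region listed for these 2 libraries, 46045 regions occupied by RPB1 and 102674 by phospho-Ser2 RPB1, together 148719 of the 271336 regions listed in the series, and the 15991 genes to which they were assigned. The series holds 6 libraries, 1 for each of 2 antibodies in the WT line and in an SHP-1 KO line, and 2 input libraries, which were not analysed here. The WT cells were untreated and are labelled as CRISPR control. The study's methods describe clonal HepG2 lines and a nontargeting guide as control, without saying which control line gave the ChIP-seq libraries. The antibodies were anti-Rpb1 (ab817), which is directed at the C-terminal domain, and anti-Rpb1-pSer2 (ab5095). Whether ab817 recovers RPB1 equally at every phosphorylation state of that domain was not tested. RPB1 below therefore means the RPB1 that ab817 recovered.

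The C-terminal domain of RPB1 is a tail of heptad repeats whose serines are phosphorylated in turn as RNA pol II starts and elongates a transcript. Serine 5 is phosphorylated early, near the promoter, where RNA pol II often pauses, and serine 2 is phosphorylated mainly by CDK9 and CDK12 during productive elongation. Phospho-Ser2 is best known from the 3′ ends of genes, where factors for cleavage and polyadenylation bind the phosphorylated tail. Genes with RPB1 at the promoter and no phospho-Ser2 are therefore the ones in which paused or poised polymerase is usually looked for.

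Each library was a ChIP-seq experiment, in which DNA cross-linked to the protein was recovered with the antibody and sequenced, and MACS2 listed the stretches where reads exceeded those of the input, DNA sequenced without the antibody step. The measurement is the fold enrichment over input at the point of highest signal in a region, its summit. Fold enrichments were ranked within each list only, since the antibodies and libraries differ. Read counts were not used, so the depth is unknown. With 1 library per antibody, the spread between replicates cannot be given for any difference between the lists, and no test was made. The intervals given are 95% Wilson intervals, which cover counting error only.

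Start sites are shown first, as RefSeq sequence (GRCh38.p14) from 60 bases before to 30 bases after the annotated start. They belong to genes with strong promoter RPB1 and no assigned phospho-Ser2 RPB1 region, or to genes with both. The 3 coding genes with the strongest promoter RPB1 among the genes with no phospho-Ser2 region were UBE2D1, which encodes a ubiquitin-conjugating enzyme, SLC16A10, an aromatic amino acid transporter, and HBEGF, a growth factor of the EGF family. Their windows lay inside RPB1 regions of 105, 88.7 and 82.9-fold enrichment and inside no phospho-Ser2 RPB1 region.
UBE2D1, chr10:58334946-58335035, forward strand: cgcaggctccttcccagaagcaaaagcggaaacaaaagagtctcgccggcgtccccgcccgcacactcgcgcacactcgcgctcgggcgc
SLC16A10, chr6:111087443-111087532, forward strand: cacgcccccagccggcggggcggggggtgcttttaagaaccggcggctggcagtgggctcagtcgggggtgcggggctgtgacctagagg
HBEGF, chr5:140346574-140346663, reverse strand: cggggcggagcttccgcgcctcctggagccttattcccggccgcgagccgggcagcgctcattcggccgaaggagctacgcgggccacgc
The next 3 belong to genes among the 10 with the highest phospho-Ser2 RPB1 enrichment that had both, HSPA5, the endoplasmic reticulum chaperone BiP, AMBP, the precursor of the plasma proteins alpha-1-microglobulin and bikunin, and AKR1C1, an aldo-keto reductase. The windows lay inside RPB1 regions of 79.3, 32.7 and 16.4-fold enrichment and inside phospho-Ser2 RPB1 regions of 37.0, 7.23 and 6.79-fold. The highest phospho-Ser2 RPB1 summits of these genes lay outside the windows, 6323, 18318 and 16639 bases after the assigned start. There AMBP reached 39.6-fold and AKR1C1 39.7-fold. The highest RPB1 summits of HSPA5 and AMBP lay 26 and 230 bases after the assigned start. That of AKR1C1, 31.9-fold, lay 16645 bases after it, at the place of its phospho-Ser2 RPB1 summit.
HSPA5, chr9:125241314-125241403, reverse strand: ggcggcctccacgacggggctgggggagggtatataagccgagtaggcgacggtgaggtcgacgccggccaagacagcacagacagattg
AMBP, chr9:114078271-114078360, reverse strand: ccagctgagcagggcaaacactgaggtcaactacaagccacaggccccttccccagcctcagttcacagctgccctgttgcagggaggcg
AKR1C1, chr10:4963355-4963444, forward strand: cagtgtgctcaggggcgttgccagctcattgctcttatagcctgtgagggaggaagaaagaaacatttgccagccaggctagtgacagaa
The last is EIF4A2, a translation initiation factor to which no phospho-Ser2 RPB1 region was assigned, with the motif TATAAA in capitals. Its window lay inside an RPB1 region of 72.7-fold and a phospho-Ser2 RPB1 region of 31.0-fold enrichment.
EIF4A2, chr3:186783517-186783606, forward strand: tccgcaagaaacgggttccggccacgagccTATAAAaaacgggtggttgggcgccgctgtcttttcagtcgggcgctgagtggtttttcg
The windows of UBE2D1, SLC16A10 and HBEGF held 13, 8 and 14 CG dinucleotides, that of HSPA5 held 9 and those of AMBP and AKR1C1 held 1 each. MLXIPL and TNFSF14, which had stronger phospho-Ser2 RPB1 than these and whose windows are not printed, held 10 and 4, so that the counts of the groups overlapped. The motif TATAAA, searched on both strands, was found in this window in 4.67% of the 27305 RefSeq promoters.

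The summits of both lists were first placed along 4801 protein-coding genes of at least 10 kb that have no coding neighbor within 10 kb (GENCODE release 44, out of 19970 coding genes on chromosomes 1 to 22 and X). RPB1 summits gathered at the start of the genes. Of 8021 RPB1 summits in these genes and the 5 kb on either side, 33.4% (32.3 to 34.4) fell in the first of 10 equal bins of the gene body and 29.6% within 1 kb of the start. Phospho-Ser2 RPB1 summits were most frequent toward the 3′ end instead. Of 26022 summits, 8.27% (7.94 to 8.61) lay in the first bin, 5.75% in the third, which held the fewest, and 14.2% (13.8 to 14.7) in the last. Only 4.47% lay within 1 kb of the start. The phospho-Ser2 RPB1 summits continued past the annotated end, where the following 5 kb held 14.1% of them, with the largest number in the second kb, against 8.66% of the RPB1 summits.

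**Figure D1:**
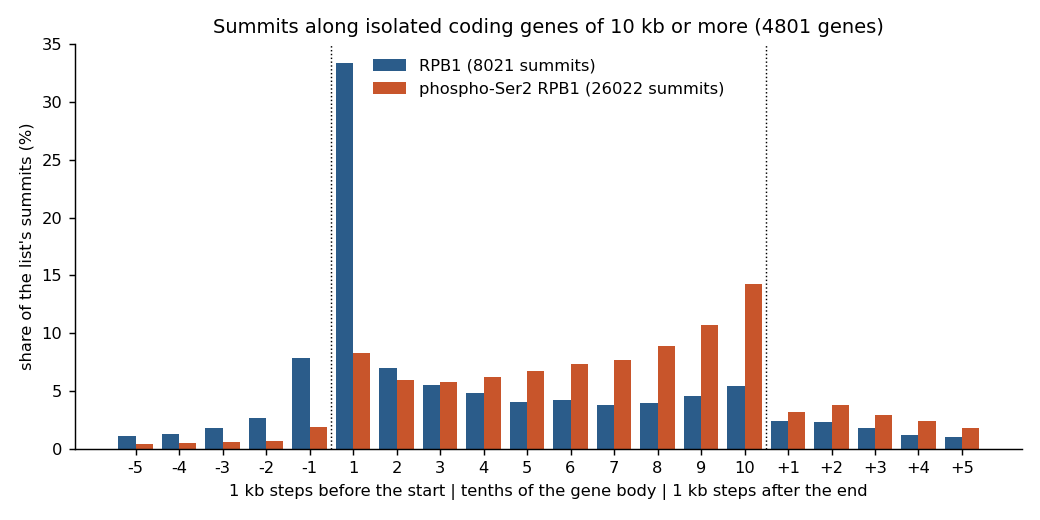
Share of each list's summits (y axis, percent) in 1 kb steps before the start, in 10 equal bins of the gene body and in 1 kb steps after the end of 4801 isolated coding genes, RPB1 in blue and phospho-Ser2 RPB1 in orange. The first body bin held 33.4% of the RPB1 summits, and the last body bin held 14.2% of the phospho-Ser2 RPB1 summits.

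The same order held for the strongest region of a gene. In the 2045 of these genes with a summit of both lists, the highest RPB1 summit lay within 1 kb of the start in 79.2% (77.4 to 80.9) and within 2 kb of the end in 0.978%. The highest phospho-Ser2 RPB1 summit lay within 1 kb of the start in 12.1% (10.7 to 13.6) and within 2 kb of the end in 36.5% (34.4 to 38.6). It lay past the annotated end in 52.0% of the genes, whereas the highest RPB1 summit did so in 1.32%. The share near the end was 47.9% in the shortest genes (10.0 to 38.4 kb), 33.0% in the middle group and 28.4% in the longest (95.7 kb and more), while the share near the start stayed between 10.9% and 12.8%. Genes without a coding neighbor are a selected set, and close gene pairs are not described by these values.

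Individual genes showed these patterns at the scale of single regions. HSPA5 was covered almost end to end in both lists. Its RPB1 region of 79.3-fold had the summit 0.078 kb after the start, and its phospho-Ser2 RPB1 region, 7.96 kb long and 37.0-fold enriched, had the summit 6.38 kb after the start of the 6.53 kb gene. At AMBP, RPB1 was split into 13 regions over the gene and its 5 kb flanks, with a maximum of 32.7-fold at the start and a further 21.5-fold region over the end, whereas 1 phospho-Ser2 RPB1 region of 19.8 kb ran through the gene to a 39.6-fold summit 19.0 kb after the start, just past the end of the 18.2 kb gene. At APOB, which encodes the apolipoprotein of very low density and low density lipoproteins, a single RPB1 region of 44.4 kb (82.1-fold) and a single phospho-Ser2 RPB1 region of 43.1 kb (21.5-fold) each spanned the gene, with the summits 0.059 kb and 37.6 kb after the start, and the second phospho-Ser2 RPB1 region, past the end, was the stronger one at 26.0-fold. PCK1, the rate-limiting enzyme of gluconeogenesis, had 6 RPB1 regions, the highest 6.96-fold at the start, and 3 phospho-Ser2 RPB1 regions, the highest 7.25-fold in the 3′ UTR, 6.15 kb after the start. PTPN6, the gene of SHP-1 itself, had 23.95-fold RPB1 at its promoter, and its 1 phospho-Ser2 RPB1 region was 4.03-fold with the summit 13 bases before the start. UBE2D1 and HBEGF had 1 RPB1 region each, 1.24 kb and 0.871 kb long, at the start, and no phospho-Ser2 RPB1 region within the gene or 5 kb on either side.

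**Figure D2:**
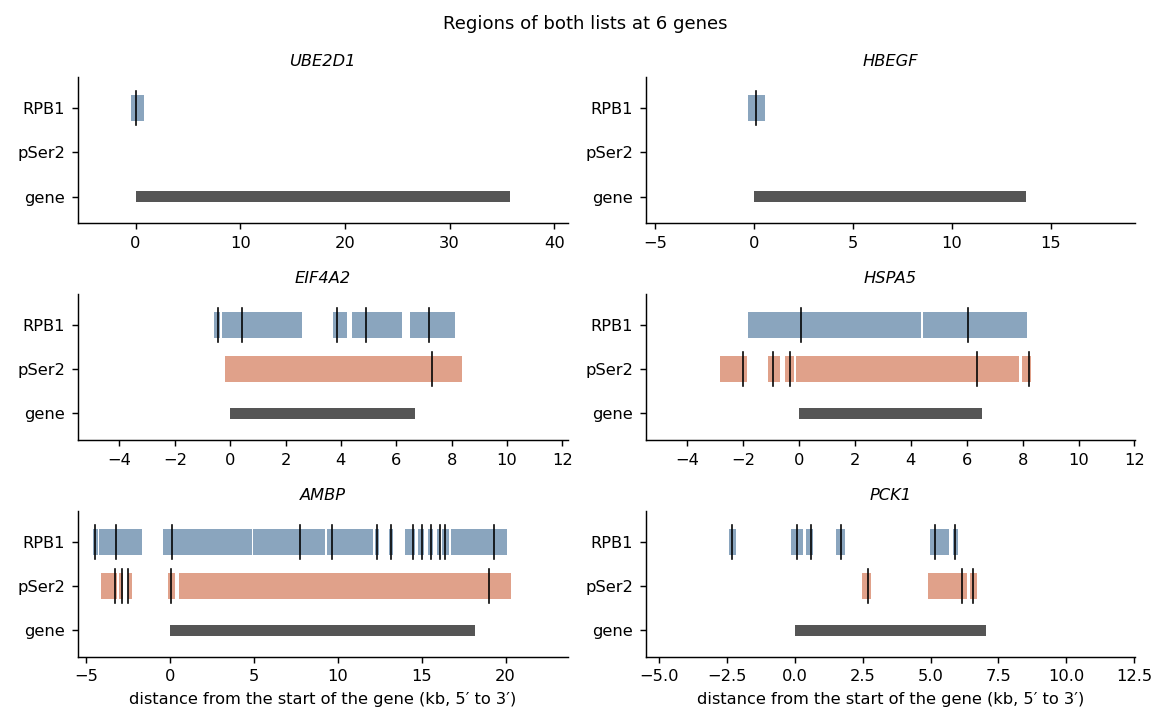
Regions of RPB1 (blue) and phospho-Ser2 RPB1 (orange) at 6 genes, drawn in kb from the start of the gene in the direction of transcription (x axis), with the gene as a gray bar and each summit as a black line. The highest RPB1 summits sat at the start of UBE2D1, HBEGF, HSPA5 and AMBP, while the highest phospho-Ser2 RPB1 summits of HSPA5, AMBP and EIF4A2 sat near or past the end and UBE2D1 and HBEGF had no phospho-Ser2 RPB1 region.

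Over the whole lists, the 2 profiles shared 17.7 Mb, which was 47.0% of the sequence covered by RPB1 (37.8 Mb) and 26.2% of that covered by phospho-Ser2 RPB1 (67.6 Mb). By an overlap of 1 bp or more, 27113 RPB1 regions met a phospho-Ser2 RPB1 region (58.9%, 58.4 to 59.3), and 24866 phospho-Ser2 RPB1 regions met an RPB1 region (24.2%, 23.96 to 24.5). The share overlapped depended on where in the gene a region lay. RPB1 regions in 3′ UTRs and just downstream of genes were overlapped most often (85.4% of 3592 and 82.7% of 1315), those in exons and introns less (66.0% and 59.6%), and those at promoters (55.6% of 20525) and in distal intergenic DNA (42.7% of 5613) least. In the other direction, phospho-Ser2 RPB1 regions at promoters were overlapped in 53.8% of 24527 and those in introns in 10.6% of 45691. Introns held the most phospho-Ser2 RPB1 regions (44.5%), with a median of 3.51-fold, and promoters the most RPB1 regions (44.6%), with a median of 11.9-fold. By the sequence covered, promoters made up 64.3% of RPB1 and 31.3% of phospho-Ser2 RPB1.

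**Figure D3:**
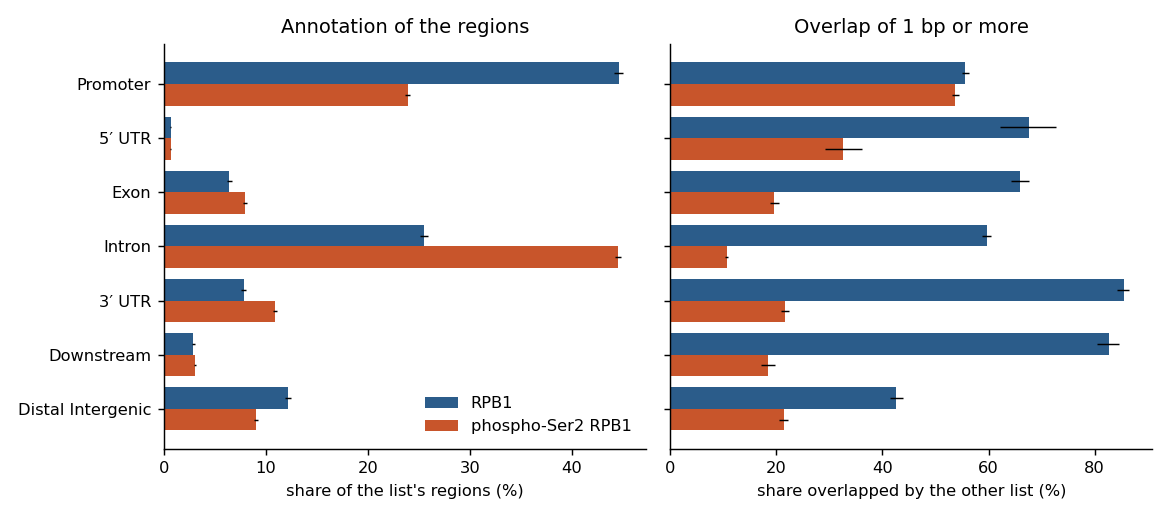
Left, share of each list's regions in each annotation class, and right, share of those regions that overlap a region of the other list by at least 1 bp (x axes, percent), RPB1 in blue and phospho-Ser2 RPB1 in orange with 95% Wilson intervals. RPB1 regions in 3′ UTRs were overlapped in 85.4%, and phospho-Ser2 RPB1 regions in introns in 10.6%.

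Strong regions were shared more often than weak ones, and at promoters the relation was not even. Overlapped regions were also longer, with a median of 521 against 367 bases for RPB1 and 514 against 322 for phospho-Ser2 RPB1. Length was not held equal in the groups below. Promoter RPB1 regions were split by fold enrichment into 5 groups of equal size. Of the weakest, 44.4% were overlapped by phospho-Ser2 RPB1, then 52.7%, 45.1% and 57.4%, and 78.3% (77.0 to 79.5) of the strongest, which were at least 35.2-fold. The dip lay at 7.25 to 19.1-fold. RPB1 regions outside promoters showed no dip, with 51.8% overlapped in the weakest and 69.3% in the strongest group. Phospho-Ser2 RPB1 regions outside promoters were overlapped in 7.79% to 13.4% of the 4 weaker groups and in 34.5% (33.8 to 35.3) of the strongest, which began at 4.596-fold.

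At promoters where a single region of each list overlapped for the same gene (5789 pairs), the phospho-Ser2 RPB1 summit lay close to the RPB1 summit, downstream of it in 42.7% (41.4 to 43.9). The median offset was 14 bases upstream of the RPB1 summit, with quartiles of 134 bases upstream and 74 bases downstream, and 48.1% of the pairs were within 100 bases of each other.

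By gene, the rule gave 3 main classes among the 15991 genes. A gene counted as having a region when the authors' annotation, which names the nearest transcript start, assigned it one. Both promoter RPB1 and a phospho-Ser2 RPB1 region of any class were found in 9739 genes (60.9%), promoter RPB1 with no phospho-Ser2 RPB1 region in 2490 (15.6%) and phospho-Ser2 RPB1 with no RPB1 region in 1827 (11.4%). The remaining genes had RPB1 outside the promoter only, 1174 with and 761 without phospho-Ser2 RPB1. Of the 12229 genes with promoter RPB1, 79.6% thus had a phospho-Ser2 RPB1 region assigned, and 73.7% had one inside the span of the assigned transcript. The share without an assigned region was 20.4% (19.7 to 21.1).

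Genes with both were mostly protein coding (88.1%) and had a median promoter RPB1 enrichment of 29.3-fold, with a median of 5 phospho-Ser2 RPB1 regions. Genes with promoter RPB1 alone were coding in 76.4% and long noncoding in 15.5%, and their median promoter RPB1 enrichment was 14.8-fold. Genes with phospho-Ser2 RPB1 alone were coding in 63.5% and small RNA genes in 16.9%. Their assigned transcripts had a median length of 4.90 kb, against 19.5 kb and 23.2 kb in the classes with promoter RPB1. The transcript was the one nearest the strongest phospho-Ser2 RPB1 region in the former and the strongest promoter RPB1 region in the latter. The lengths are therefore unlike measures and not lengths of genes. Among coding genes, promoters with a high CpG ratio (at least 0.6 in the 300 bases around the RefSeq start) made up 83.7% (82.8 to 84.5) of those with both, 77.7% (75.5 to 79.7) of those with RPB1 alone and 66.7% (63.6 to 69.6) of those with phospho-Ser2 RPB1 alone. Over all 27305 RefSeq promoters the share was 49.0%. Promoter RPB1 enrichment was not held equal. RefSeq promoter sequence was at hand for 82.9%, 80.1% and 81.2% of the coding genes of these classes. The motif TATAAA near the start was present in 2.47%, 2.36% and 4.56% of them.

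The share of genes without phospho-Ser2 RPB1 followed the strength of promoter RPB1. With the 12229 genes in 10 groups by promoter RPB1 enrichment, the 3 weakest groups, up to 16.4-fold, had no assigned phospho-Ser2 RPB1 region in 35.1%, 39.98% and 35.5% of genes. The share was 25.1% in the fourth group, 16.9% in the fifth and 4.74% (3.69 to 6.08) in the strongest, above 54.6-fold. Counting regions inside the transcript span gave the same order from the second group on, from 48.8% to 6.79%. Transcript length showed less, with 24.6% of the shortest genes, 15.5% in the fifth of 10 length groups and 28.5% in the longest (over 116 kb) having none.

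**Figure D4:**
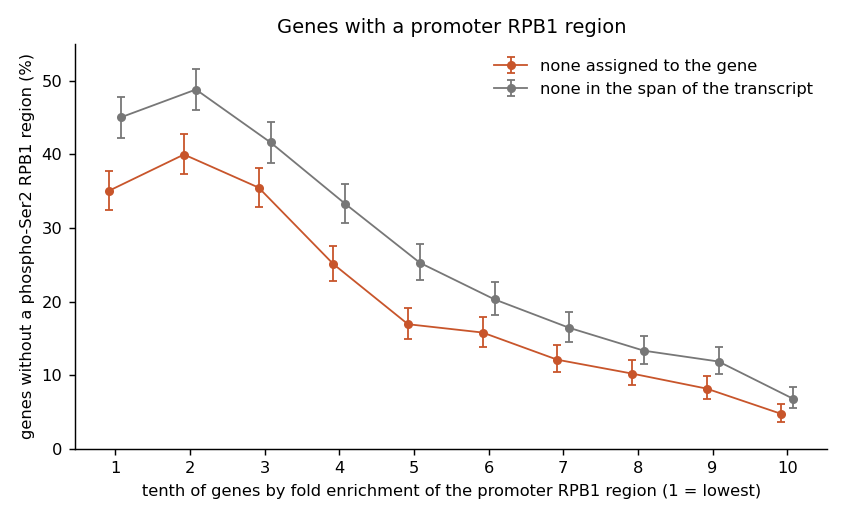
Share of genes with a promoter RPB1 region that had no phospho-Ser2 RPB1 region (y axis, percent, with 95% Wilson intervals) in 10 groups by promoter RPB1 fold enrichment (x axis, 1 is lowest), with none assigned to the gene in orange and none in the transcript span in gray. The share by assignment was 39.98% in the second group and 4.74% in the strongest.

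Across the 9739 genes with both, Spearman's rho was 0.18 between promoter RPB1 enrichment and the highest phospho-Ser2 RPB1 enrichment, 0.27 between RPB1 enrichment outside the promoter and phospho-Ser2 RPB1 (5724 genes), and 0.51 between the bases covered by the 2 lists. These are descriptions across genes of the same 2 libraries, and genes are not independent replicates. Spearman's rho of transcript length was 0.26 with the number of phospho-Ser2 RPB1 regions and -0.15, an inverse relation, with that of RPB1 regions.

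In 63.6% (62.6 to 64.5) of the 9739 genes with both, the highest phospho-Ser2 RPB1 summit lay farther downstream of its assigned start than the highest RPB1 summit did. The median position was 73 bases after the start for RPB1 and 1197 bases after it for phospho-Ser2 RPB1. When positions were compared directly on the strand of the gene, 69.6% of the phospho-Ser2 RPB1 summits lay downstream, at a median of 4.35 kb, and 57.6% lay more than 1 kb downstream. The value differed between genes whose 2 strongest regions had the same assigned transcript (3733 genes, 42.6% downstream, median 17 bases upstream) and genes in which they had different ones (6006 genes, 86.3% downstream, median 16.1 kb). Since each region takes the nearest start, a summit far downstream tends to get another transcript, so this split depends on the distance it describes. The strongest RPB1 region was a promoter region in 93.1% of the genes. The strongest phospho-Ser2 RPB1 region was a promoter region in 43.3%, intronic in 17.1%, in a 3′ UTR in 16.5%, distal in 11.1% and just downstream of a gene in 6.07%.

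The promoter class needs care for long regions, because a region counts as promoter when any of its bases lies within 1 kb of some transcript start. IGFBP1, a liver-secreted binding protein for insulin-like growth factors, had 1 phospho-Ser2 RPB1 region, 36.6-fold and classed as promoter, whose summit lay 5626 bases after the start of a 5312 base transcript. AMBP and HSPA5 were of the same kind, as described above. MLXIPL, the glucose-responsive transcription factor ChREBP, had the highest phospho-Ser2 RPB1 enrichment of all genes (55.9-fold, beside 61.1-fold RPB1), and TNFSF14, a cytokine of the tumor necrosis factor family, was next (48.0-fold, beside 25.5-fold). The summits of both TNFSF14 values lay upstream of its start, at -1055 bases for phospho-Ser2 RPB1 and -1078 bases for RPB1, and its other phospho-Ser2 RPB1 regions were 3.87 and 4.57-fold. The 48.0-fold region also covered a 19.5-fold RPB1 region classed as just downstream of a gene. Whether the 48.0-fold signal belongs to TNFSF14 cannot be told from the assignment. AKR1C1 reached 39.7-fold. The 35.2-fold region assigned to the small nucleolar RNA gene SNORA70 lay in the span of RPL10, and the 34.4-fold region assigned to GAS5-AS1, an antisense gene of 694 bases, was 8624 bases long, so neither value can be told apart from the overlapping genes. All 10 of the strongest genes with both, not all of which are named here, had both in SHP-1 KO cells too.

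The genes with the strongest promoter RPB1 and no phospho-Ser2 RPB1 region were, in order, LOC101927666 (106-fold), UBE2D1 (105-fold), LOC101927932 (89.1-fold), SLC16A10 (88.7-fold), ID2-AS1 (83.1-fold), HBEGF (82.9-fold), LAPTM4B (81.1-fold), MIR4523 (80.3-fold), GK5 (79.9-fold) and LINC01137 (78.3-fold). They fell in 2 kinds. The promoter RPB1 regions of the 5 coding genes overlapped no phospho-Ser2 RPB1 region at all. The 5 noncoding genes lay next to a coding gene, and their RPB1 regions overlapped a phospho-Ser2 RPB1 region that was assigned to it. For ID2-AS1 that gene was ID2, an inhibitor of helix-loop-helix transcription factors (12.0-fold), and for LOC101927932 it was GNAS, a G protein subunit (5.73-fold). LOC101927666, LINC01137 and MIR4523 met regions assigned to DYNLL2 (3.75-fold), ZC3H12A (5.08-fold) and TAOK1 (3.38-fold). UBE2D1, SLC16A10, HBEGF and GK5, the last a member of the glycerol kinase family, had no phospho-Ser2 RPB1 region in the transcript span either, while LAPTM4B, a lysosomal membrane protein, had one that was assigned to another gene. All 10 genes had promoter RPB1 and no phospho-Ser2 RPB1 region in SHP-1 KO cells as well, where UBE2D1 had 67.4-fold and HBEGF 65.4-fold RPB1.

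In the whole class of 2490 genes, the strongest promoter RPB1 region overlapped some phospho-Ser2 RPB1 region in 9.12% (8.05 to 10.3), from 3.41% to 9.04% in the 4 weaker of 5 groups and 22.5% (19.0 to 26.4) in the strongest, at 29.1-fold and above. An overlapping region assigned to the same gene takes that gene out of the class, so these shares are held down by the rule. A phospho-Ser2 RPB1 region assigned to another gene lay in the transcript span of 448 of them (17.99%). EIF4A2 was the clearest case, a gene singled out after its values were seen. Its promoter RPB1 was 72.7-fold, and the phospho-Ser2 RPB1 region of 8.55 kb and 31.0-fold that covered the whole gene, with the summit 7.29 kb after the start of the 6.69 kb gene, was assigned to MIR1248, a small RNA gene inside it.

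The genes with the strongest phospho-Ser2 RPB1 and no RPB1 region were SNORD83A (34.3-fold), SNORA64 (31.5-fold), MIR1248 (31.0-fold), CCDC183 (25.3-fold), SNORA61 (23.3-fold), MIR1304 (22.2-fold), MAFG-DT (20.0-fold), SLC2A4RG (18.4-fold), SNORD101 (17.7-fold) and HCFC1R1 (17.7-fold), of which 6 encode small RNAs. At all 10 the phospho-Ser2 RPB1 region overlapped an RPB1 region that was assigned to a neighbor or host gene. For SNORD83A this was RPL3, the ribosomal protein gene whose introns hold it (32.0-fold RPB1), for MAFG-DT it was MAFG, a small Maf transcription factor (66.6-fold), for CCDC183 it was RABL6 (49.0-fold) and for HCFC1R1 it was TNFRSF12A (47.9-fold). By position, then, RPB1 was present at all 10 of these regions, and 4 of the 10 genes were in the same class in SHP-1 KO cells. Across the class, the strongest phospho-Ser2 RPB1 region overlapped an RPB1 region in 184 of 1827 genes (10.1%, 8.77 to 11.5). The share was 35.8% (31.7 to 40.1) in the 492 genes in which it was a promoter region and 0.599% in the 1335 in which it lay elsewhere. An overlapping RPB1 region tends to have the same nearest start, which takes the gene out of this class. The low shares therefore follow in part from how the class was drawn. Of the 309 small RNA genes of the class, 290 lay inside a coding or long noncoding gene and 246 inside one with promoter RPB1. The same counts were not made for small RNA genes of the other classes, so they cannot be read as particular to this one.

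Lists of genes were read against the 79.6% of all promoter RPB1 genes that had phospho-Ser2 RPB1. The median highest phospho-Ser2 RPB1 enrichment over all genes with both was 5.84-fold, and the list medians ran from 5.37 to 21.5-fold. Of 20 secreted liver proteins, 19 had promoter RPB1 and 18 of these had phospho-Ser2 RPB1, with a median of 21.5-fold. TF, the iron carrier transferrin, had 93.8-fold promoter RPB1 and 16.6-fold phospho-Ser2 RPB1, RBP4, the retinol carrier, 104-fold and 23.8-fold, and AHSG, fetuin-A, 54.9-fold and 34.2-fold. HP, haptoglobin, had 4.70-fold RPB1 and no phospho-Ser2 RPB1, and APOA1 had RPB1 outside the promoter only, with 3.91-fold phospho-Ser2 RPB1. The highest APOA1 summits lay upstream of its assigned start, at -3203 bases for RPB1 and -5153 bases for phospho-Ser2 RPB1. Whether these signals belong to APOA1 cannot be told from the assignment. ALB, serum albumin, had 24.4-fold and 15.1-fold, and AFP, the fetal serum protein that hepatoma cells make, 34.2-fold and 24.7-fold. FOXA2, a liver transcription factor, had 2.84-fold phospho-Ser2 RPB1 at its promoter, inside a 29.2-fold RPB1 region assigned to LINC00261. Of 13 markers of other cell types, 8, among them PTPRC, COL1A1 and KRT5, had no region of either list, and PECAM1 (6.35-fold and 9.75-fold) and SYP (20.0-fold and 5.84-fold) had both. Of the rest, 1 had promoter RPB1 without phospho-Ser2 RPB1 and 2 had RPB1 outside the promoter only.

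Small nuclear RNA genes, which RNA pol II transcribes into short transcripts, had the next highest median. Both lists had regions at 13 of the 14 with promoter RPB1, at a median of 15.5-fold phospho-Ser2 RPB1. RNU12, of the minor spliceosome, had 68.3-fold promoter RPB1 and 25.6-fold phospho-Ser2 RPB1, and RNU1-1 63.1-fold and 26.4-fold. RNU2-1 had RPB1 (14.52-fold) alone. The strongest phospho-Ser2 RPB1 summit was farther downstream in 2 of these 13, against 63.6% of all genes with both. Short genes leave little room for such a distance, and gene length was not held equal. Gene copies of this family are near-identical, so reads may not have been placed with certainty. Of 61 replication-dependent histone genes, 33 had promoter RPB1 and 28 of these phospho-Ser2 RPB1 (median 7.89-fold), and in 27 of the 28 the strongest phospho-Ser2 RPB1 region was classed as promoter. Over all genes with both, that share was 43.3%. On a gene shorter than 1 kb any region is classed as promoter, and gene length was not held equal. HIST1H1E, a linker histone, had 64.9-fold promoter RPB1 and 13.9-fold phospho-Ser2 RPB1, and HIST1H1C 54.2-fold and 17.4-fold. The 5 without phospho-Ser2 RPB1, HIST1H2AH, HIST1H2AL, HIST2H2BF, HIST2H3D and HIST1H4A, had promoter RPB1 between 4.75 and 9.37-fold.

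Of 78 cytosolic ribosomal protein genes, 69 had promoter RPB1 (median 35.1-fold) and 66 of these had phospho-Ser2 RPB1 (median 9.56-fold). RPS21 (82.8-fold and 10.6-fold), RPL14 (80.7-fold and 12.2-fold) and RPLP1 (77.5-fold and 16.8-fold) had the strongest promoter RPB1. The 3 without an assigned phospho-Ser2 RPB1 region, RPL10, RPL23 and RPLP0, all had one in the transcript span. The 5 with phospho-Ser2 RPB1 only, RPL12, RPL28, RPS2, RPS12 and RPS25, all lay at RPB1 regions of 29.0 to 63.3-fold assigned to a neighbor, so that none of these 8 lacked either signal by position. Of 18 heat shock protein genes, 17 had both. HSP90AA1 had 133-fold promoter RPB1 and 16.005-fold phospho-Ser2 RPB1, HSPA5 79.3-fold and 37.0-fold, and HSPA1B 77.5-fold and 13.7-fold. The exception, HSPA1L, had no region.

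**Figure D5:**
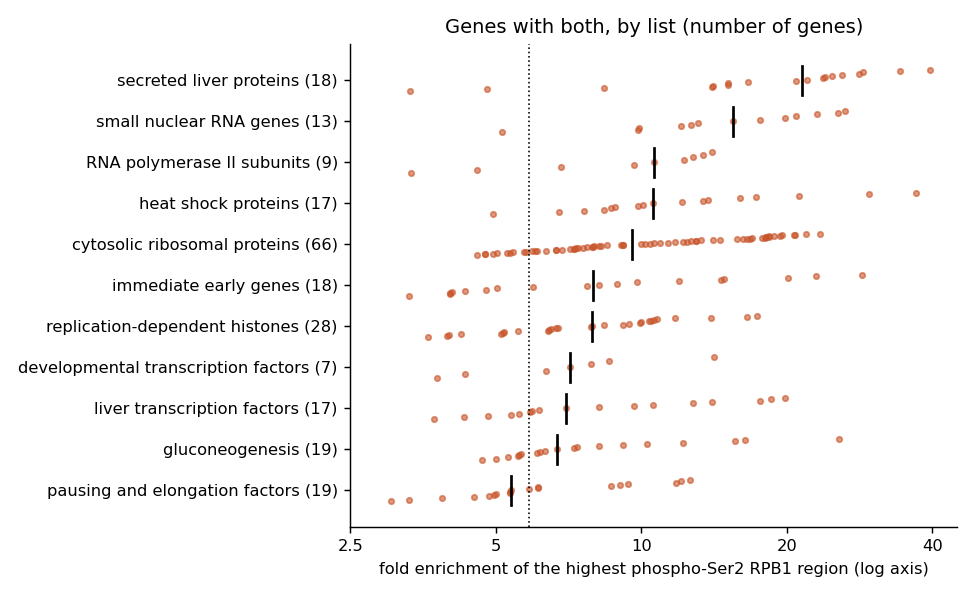
Fold enrichment of the highest phospho-Ser2 RPB1 region (x axis, log scale) of each gene with both promoter RPB1 and phospho-Ser2 RPB1, by gene list, with the number of genes in brackets and the list median as a black bar. The dotted line is the median of all genes with both, 5.84-fold. The median was 21.5-fold for secreted liver proteins and 5.37-fold for pausing and elongation factors.

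Immediate early genes, many of them known for promoter-proximal pausing, had the strongest promoter RPB1 of the lists (median 47.8-fold in 19 genes), and 18 of the 19 had phospho-Ser2 RPB1, at a median of 7.93-fold. KLF6 had 120-fold promoter RPB1 and 22.98-fold phospho-Ser2 RPB1, EGR1 103-fold and 11.9-fold, and FOS 67.4-fold and 8.16-fold. ATF3 had 58.9-fold promoter RPB1 and 3.30-fold phospho-Ser2 RPB1, the latter under the 3.69-fold median of its list. KLF4 had RPB1 alone (11.01-fold). JUND had 5.31-fold phospho-Ser2 RPB1 inside a 146-fold RPB1 region that was assigned to MIR3188. Of the liver transcription factors, 17 of 18 with promoter RPB1 had both (median 6.97-fold). CEBPA had 146-fold and 17.6-fold, FOXA3 91.5-fold and 12.8-fold, and FOXA1 71.9-fold and 4.82-fold, while NR5A2 had RPB1 alone (9.45-fold).

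Among 24 genes of gluconeogenesis and its regulators, 20 had promoter RPB1 and 19 of these phospho-Ser2 RPB1 (median 6.70-fold). GAPDH had 101-fold and 16.4-fold, TPI1 61.8-fold and 25.6-fold, and PCK1 6.96-fold and 7.25-fold. NR3C1, the glucocorticoid receptor, had 24.9-fold promoter RPB1 and no phospho-Ser2 RPB1 region assigned or in its span, and none was assigned to it in SHP-1 KO cells. G6PC1 had no region. Of the 12 RNA pol II subunit genes, 9 had both, among them POLR2A, the gene of RPB1 (70.5-fold and 12.8-fold). POLR2G had promoter RPB1 (17.5-fold) alone. Of 25 pausing and elongation factors, all 19 with promoter RPB1 had phospho-Ser2 RPB1, at the lowest median of the lists, 5.37-fold. HEXIM1, the inhibitor of CDK9, had 67.9-fold and 12.6-fold, and CDK12, a serine 2 kinase, 42.6-fold and 9.02-fold. Developmental transcription factors had few regions, with none at 55 of 70 and promoter RPB1 at 8, of which 7 had phospho-Ser2 RPB1 assigned and 3 had it in the transcript span (37.5%, against 73.7% of all promoter RPB1 genes). The intervals of the shares with phospho-Ser2 RPB1 included 79.6% in 9 of the 12 lists, for example 75.4 to 99.1% for the secreted liver proteins. They lay above it for the ribosomal proteins (88.0 to 98.5%), the heat shock proteins (81.6 to 100%) and the pausing and elongation factors (83.2 to 100%). The median promoter RPB1 of these lists was 35.1, 33.3 and 41.8-fold. Among all promoter RPB1 genes, only 12.1% lacked phospho-Ser2 RPB1 at 31.1 to 36.9-fold and 10.2% at 36.9 to 43.9-fold. A difference from genes of equal promoter RPB1 was not tested.

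The 5 genes with the most phospho-Ser2 RPB1 regions, chosen by that number, had far fewer RPB1 regions. GMDS, an enzyme of GDP-fucose synthesis, had 502 regions, RELN, the extracellular matrix protein reelin, 423, EHBP1 297, ITPR2, a calcium channel of the endoplasmic reticulum, 257 and SOX5, a transcription factor, 221, beside 2, 24, 3, 8 and 7 RPB1 regions. At ITPR2 the promoter RPB1 region was 50.5-fold with the summit 0.076 kb after the start, and the other RPB1 regions were at most 6.73-fold and ended 96.1 kb into the 498 kb gene. The gene and its 5 kb flanks held 254 phospho-Ser2 RPB1 regions that covered 101 kb, none over 8.62-fold. GMDS had no promoter RPB1 region by assignment, but the start of its RefSeq promoter lay inside a 47.7-fold RPB1 region assigned to another gene. The longest phospho-Ser2 RPB1 regions were single stretches over GPC3, the oncofetal proteoglycan glypican-3 (89.6 kb, 20.0-fold), NKD1, an inhibitor of Wnt signaling (54.8 kb, 28.3-fold), APOB (43.1 kb), MEGF6 (36.8 kb) and KCNQ1OT1, a noncoding RNA of an imprinted locus (34.9 kb).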

How the data were processed

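The lists deposited by the authors were used as they stand. Trimming by Trimmomatic, alignment to hg38 by BWA and narrow peak calling by MACS2, with the matching input as control, were done by the authors for each library. The versions are not given in the sources used here. The lists give the fold enrichment at the summit, which is a ratio, a score and the −log10 p-value and q-value as deposited, with the authors' annotation of class and nearest transcript start. A further deposited table, the authors' own comparison of SHP-1 KO with WT RPB1 (p-values and window counts per region), was not used.

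Overlaps, gene classes and intervals were computed in Python 3.11.15 with pandas 2.3.3 and SciPy 1.17.1 and were tested on simulated data. Classes follow the assigned symbol, and promoter means within 1 kb of a start. Gene types, and the sequences, came from RefSeq (GRCh38.p14), and gene bodies from GENCODE release 44. Genes named are the 10 strongest of each class, the 5 with the most and the 5 longest phospho-Ser2 RPB1 regions, at most about 5 examples from each of 12 lists, PCK1 and PTPN6. Others are named where a result turns on them. A few genes that this rule names are not reported here. The comparison and the lists were chosen with earlier results of these data known. The alternatives were a −log10 q-value of at least 5, chromosomes 1 to 22 and X, a shortened phospho-Ser2 RPB1 list, other overlaps, other promoter limits, coding genes, transcript spans and genes of 10 kb or more.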

Additional observations from a re-analysis of the deposited data

How the results depend on the processing

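No paired analysis was possible because each antibody and cell type has 1 library and no value comes from a test. At a −log10 q-value of at least 5 in both lists, 53.2% of RPB1 and 29.6% of phospho-Ser2 RPB1 regions were overlapped by the other list, the promoter shares were 54.8% and 29.4%, and 28.6% of promoter RPB1 genes had no phospho-Ser2 RPB1. With the phospho-Ser2 RPB1 list cut to its 46045 best q-values, the overlaps were 48.6% and 38.4%, its promoter share 30.0%, the genes without phospho-Ser2 RPB1 30.6% and the genes with it alone 1214. Reciprocal overlap of 50% gave 12.5% and 5.59%, and a summit inside the other list's region 50.5% and 18.5%. Coding genes alone gave 18.1% without phospho-Ser2 RPB1 and 1160 genes with it alone, and transcript spans gave 26.3% without. The share of genes with the phospho-Ser2 RPB1 summit farther downstream was 65.5% in genes of 10 kb or more. The alternatives that follow were chosen after seeing the data. Regions covering the start itself gave promoter shares of 29.6% and 10.3% and 19.5% of genes without phospho-Ser2 RPB1. The share with the farther summit was 42.6% where both regions had the same transcript, a split that itself depends on the distance, and 69.6% by direct positions. Of 38 alternatives, 23 moved a value beyond its interval or a count by over 1.5 times. The promoter limit of 1 kb equals the authors' own class and changed nothing. The depth is unknown, so a missing region may be one below the detection limit.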

Other observations

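The same comparison in SHP-1 KO cells gave 41605 RPB1 and 81012 phospho-Ser2 RPB1 regions, of which 58.2% and 26.1% were overlapped by the other list. Promoter RPB1 without phospho-Ser2 RPB1 was found in 24.99% (24.2 to 25.8) of the promoter RPB1 genes there, and phospho-Ser2 RPB1 without RPB1 in 1553 genes. The strongest phospho-Ser2 RPB1 summit lay farther downstream in 62.4% (61.4 to 63.4) of the genes with both. Among WT genes with both, 84.3% had both there too. Of the 2490 WT genes with promoter RPB1 alone, 1711 (68.7%) stayed so, 306 had both and 412 had no region. Of the 1827 genes with phospho-Ser2 RPB1 alone, 56.9% stayed in that class and 493 had no region. PCK1, with both in WT cells, had no region of either list in SHP-1 KO cells. These are single libraries, and differences between WT and SHP-1 KO cells have no replicate check.

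Genes with RPB1 outside the promoter only were weakly enriched, with a median of 5.98-fold RPB1 where phospho-Ser2 RPB1 was present (1174 genes) and 5.59-fold where it was not (761 genes). Of the latter, 340 had no region in SHP-1 KO cells and 44.5% had the same class. Among genes with both, 1637 (16.8%) rested on a single phospho-Ser2 RPB1 region, and in 1084 (11.1%) the highest phospho-Ser2 RPB1 enrichment was under the median of that list, 3.69-fold.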
